A study of Mus musculus with 18 samples.

Results

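Cytochrome c oxidase, the last enzyme of the mitochondrial respiratory chain, contains several nuclear-encoded subunits that exist in alternative versions encoded by separate genes. The paralog pairs examined here were Cox4i2 and Cox4i1, Cox6a2 and Cox6a1, Cox7a1 and Cox7a2, and Cox8b and Cox8a. These 8 genes were taken by symbol from a table of 54347 genes, 31886 of which carried a symbol, and all 8 were found in it. They were measured by polyA RNA-seq in 3 fat depots, the brown fat between the shoulder blades (interscapular, iBAT), the white fat of the groin (inguinal, iWAT) and the white fat beside the epididymis (eWAT). The tissues came from 12-week-old mice on the C57BL/6N background, either wild type (wt) or ΔGm15551 (ko). In the ko line, exon 1 of Gm15551, which gives rise to a long noncoding RNA, was deleted with CRISPR/Cas9, and the line was bred back to wild-type animals before use. The deletion is not restricted to adipose tissue. Each of the 6 groups of tissue and genotype held 3 libraries, and libraries with the same genotype and number came from the same mouse, so that 6 mice gave 18 libraries. Total estimated counts were 14997901 to 34389586 per library.

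The enzyme passes electrons from cytochrome c to oxygen and pumps protons across the inner mitochondrial membrane. Its catalytic core is made from the mitochondrial genome (mt-Co1, mt-Co2 and mt-Co3), while the nuclear subunits surround that core and several of them influence its activity. Cox6a2, Cox7a1 and Cox8b encode the versions known from heart and skeletal muscle, and Cox6a1, Cox7a2 and Cox8a encode the versions found in most tissues, often called the liver type. Cox4i1 is the broadly used version of the regulatory subunit 4, and Cox4i2 is known as the lung version. Brown adipose tissue, where UCP1 lets protons back across the membrane to make heat, is rich in mitochondria and is known to use Cox7a1 and Cox8b. Below, Cox4i2, Cox6a2, Cox7a1 and Cox8b are called the tissue isoforms and their partners the common isoforms.

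The libraries were first checked against their labels. Gm15551 held 40 to 316 counts in the wt libraries and 0 to 4 in the ko libraries. Summed thermogenic markers, led by Ucp1 in iBAT and by Cidea or Kcnk3 in iWAT, reached 6885 to 12600 CPM (counts scaled to a common library size, with TMM correction for composition) in iBAT, 43.3 to 373 CPM in iWAT and 16.6 to 38.6 CPM in eWAT. Some white adipose libraries stood apart. Skeletal muscle markers, led by Myh4, reached a sum of 5048 CPM in iWAT ko replicate 1 and at most 27.6 CPM in the others. Lymph node markers, led by Cd79a, summed to 688 CPM in iWAT wt replicate 3 and 294 CPM in iWAT ko replicate 2, against at most 13.6 CPM elsewhere. In eWAT ko replicate 3, markers of the epididymis, led by Crisp1, summed to 4823 CPM and markers of the testis, led by Prm2, to 94.6 CPM. These libraries were kept, and for the pairs and the other genes of the enzyme named below, calls that change without them are given beside the result.

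The pairs fell into different patterns. Per transcript length, Cox7a1 and Cox8b made up the larger part of their pair in iBAT (for Cox8b this turned without the length correction), a small part in eWAT and an intermediate part in iWAT. Cox4i2 had similar CPM in the 3 tissues after TMM scaling while Cox4i1 was higher in iBAT. The share of Cox4i2 in the pair was lowest in iBAT. Cox6a2 was near 0 in 17 of 18 libraries. In bulk tissue, more cells of a type and more RNA per cell cannot be told apart, so that these values describe the tissue as a whole. The values below are given for each pair in turn. The level of a gene is given in CPM, or in CPM per kb of its longest protein-coding transcript where genes are compared with each other. The share of an isoform is its part of the pair, in percent, after the same division by length.

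**Figure D1:**
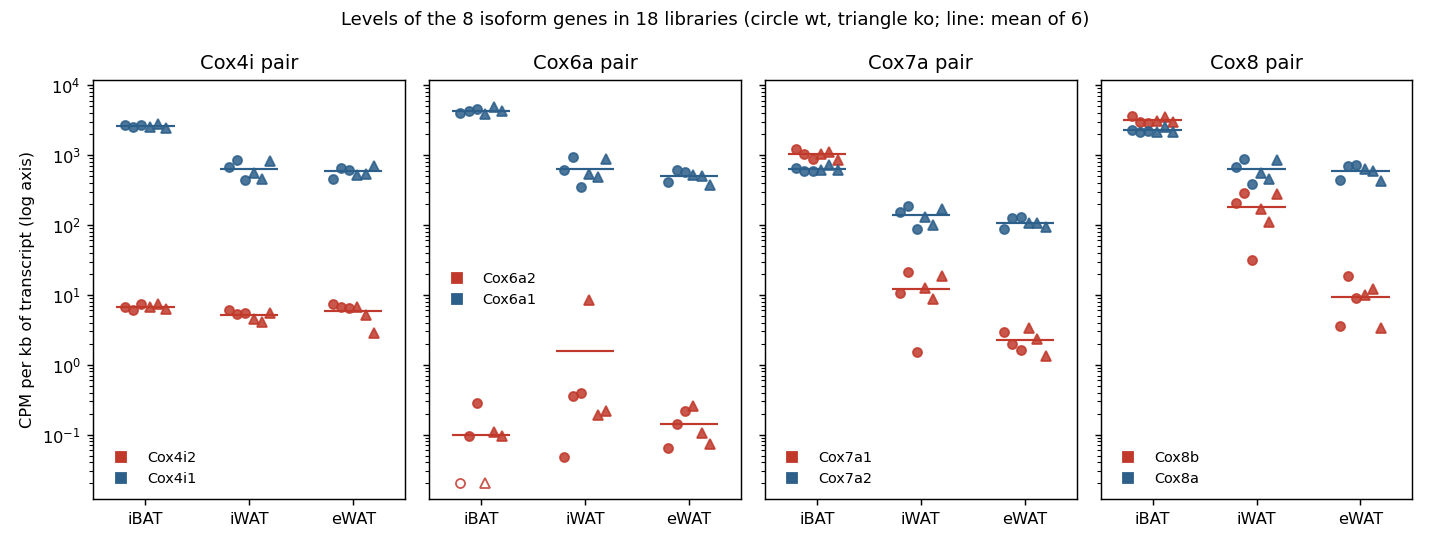
Level of each isoform in CPM per kb of transcript (log axis) in the 18 libraries, 1 panel per pair, with wt as circles, ko as triangles and lines at the mean of 6 libraries. Open symbols at the bottom mark the libraries with 0 counts of Cox6a2. Per kb, Cox7a1 and Cox8b lie above their partners in iBAT (Cox8b lies below Cox8a there on average without the length division) and below them in iWAT and eWAT, Cox4i2 stays between 2.84 and 7.50 CPM per kb in the 3 tissues, and Cox6a2 exceeds 1 CPM per kb in iWAT ko replicate 1 only.

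Cox7a1 (chr7:30184144-30186078, plus strand, GRCm38) encodes the muscle and heart version of a small subunit of the enzyme. In iBAT it was found at 413.5 to 585 CPM with a median of 506 CPM. In iWAT it reached 5.16, 10.2 and 0.726 CPM in wt replicates 1 to 3 and 6.07, 4.23 and 9.13 CPM in ko replicates 1 to 3. In eWAT the lowest value was 0.644, the median 1.04 and the highest 1.63 CPM. The lowest iBAT library was thus far above the highest white adipose library, whereas iWAT and eWAT overlapped in iWAT wt replicate 3. In the edgeR quasi-likelihood fit, Cox7a1 was higher in iBAT than in iWAT by 6.40 ± 0.46 on the log2 scale (SE, adjusted p = 1.01e-08) and than in eWAT by 8.82 ± 0.52 (adjusted p = 8.29e-10). It was also higher in iWAT than in eWAT, by 2.42 ± 0.42 (adjusted p = 0.0017). With the 3 wt mice alone, this last difference was 2.33 with an edgeR adjusted p of 0.221.

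Its partner Cox7a2 (chr9:79755361-79759878, minus strand, GRCm38), the version of most tissues, was at 395 to 477.5 CPM in iBAT, 57.0 to 124 CPM in iWAT and 57.4 to 84.8 CPM in eWAT. It was higher in iBAT by 2.20 ± 0.17 on the log2 scale against iWAT (edgeR adjusted p = 3.18e-08) and by 2.55 ± 0.18 against eWAT (edgeR adjusted p = 4.63e-09). Both genes of the pair were thus higher in brown fat, and the difference was larger for Cox7a1. Cox7a2 did not pass the test between iWAT and eWAT (log2 difference 0.35, edgeR adjusted p = 0.203), but did so without the lymph node libraries iWAT wt replicate 3 and iWAT ko replicate 2 (0.57, edgeR adjusted p = 0.0109) and with limma voom on all libraries (0.40, adjusted p = 0.0338).

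Within the pair, Cox7a1 accounted for 61.7% ± 2.41 in iBAT, 7.50% ± 3.13 in iWAT and 2.09% ± 0.859 in eWAT (SD, n = 6). Single libraries ranged from 58.4% to 64.5% in iBAT, from 1.70% to 10.03% in iWAT and from 1.25% to 3.22% in eWAT. The widest exact Clopper-Pearson 95% interval of a library, which covers counting error only, spanned 1.71 percentage points in iBAT and 3.12 in iWAT. The ratio of Cox7a1 to Cox7a2 was 22.7-fold higher in iBAT than in iWAT and 79.0-fold higher than in eWAT, with all 6 iBAT libraries above all white adipose libraries. In a two-sided exact permutation test of the log2 ratio with 6 libraries (3 wt and 3 ko) against 6, both differences had p = 0.0022, the smallest value this design allows, and 0.00289 after adjustment over the 12 tissue comparisons of the pairs. The ratio differed 3.48-fold between iWAT and eWAT (exact permutation p = 0.0087, adjusted p = 0.0104) and was higher in iWAT in 6 of 6 mice.

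Cox8b (chr7:140898945-140900446, minus strand, GRCm38) encodes the muscle and heart version of the smallest nuclear subunit. It reached 1043 to 1302 CPM in iBAT with a median of 1084 CPM. In iWAT it was found at 74.4, 104 and 11.4 CPM in wt replicates 1 to 3 and at 61.2, 40.2 and 98.4 CPM in ko replicates 1 to 3. In eWAT it ranged from 1.19 to 6.79 CPM with a median of 3.41 CPM. The 3 tissues did not overlap for this gene, and iWAT wt replicate 3 was again the lowest iWAT library. Cox8b was higher in iBAT than in iWAT by 4.13 ± 0.48 on the log2 scale (edgeR adjusted p = 2.23e-06) and than in eWAT by 8.39 ± 0.59 (edgeR adjusted p = 5.21e-09). The difference between iWAT and eWAT was 4.25 ± 0.50 (edgeR adjusted p = 4.2e-05), or 19.1-fold. With the 3 wt mice alone it was 4.07 with an edgeR adjusted p of 0.0581.

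Cox8a (chr19:7215153-7217616, minus strand, GRCm38), the common version, was at 1194 to 1400 CPM in iBAT, 213 to 491 CPM in iWAT and 234 to 403 CPM in eWAT. It was higher in iBAT than in iWAT by 1.84 ± 0.20 on the log2 scale (edgeR adjusted p = 1.27e-06) and than in eWAT by 1.95 ± 0.20 (edgeR adjusted p = 5.17e-07). These were the smallest differences among the 6 pair members that passed the test in these contrasts. Between iWAT and eWAT the difference was 0.11 and did not pass (edgeR adjusted p = 0.776).

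Cox8b contributed 58.3% ± 1.57 of its pair in brown fat, 20.6% ± 6.61 in iWAT but 1.49% ± 0.714 in eWAT (SD, n = 6). Without division by length its mean share in iBAT was 47.7%, so that which gene of this pair was higher in iBAT depended on the length correction. In iWAT, 5 of the 6 libraries lay between 19.7% and 24.5%, and wt replicate 3 was at 7.57%. The ratio of Cox8b to Cox8a was 5.77-fold higher in iBAT than in iWAT, 101-fold higher in iBAT than in eWAT and 17.5-fold higher in iWAT than in eWAT. Each of these differences had an exact permutation p of 0.0022 and an adjusted p of 0.00289, with no overlap between the groups of 6. Taken by library, the share of Cox8b in its pair was below that of Cox7a1 in 6 of 6 iBAT libraries and in 5 of 6 eWAT libraries, and above it in 6 of 6 iWAT libraries. This order is given as a count and was not tested.

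**Figure D2:**
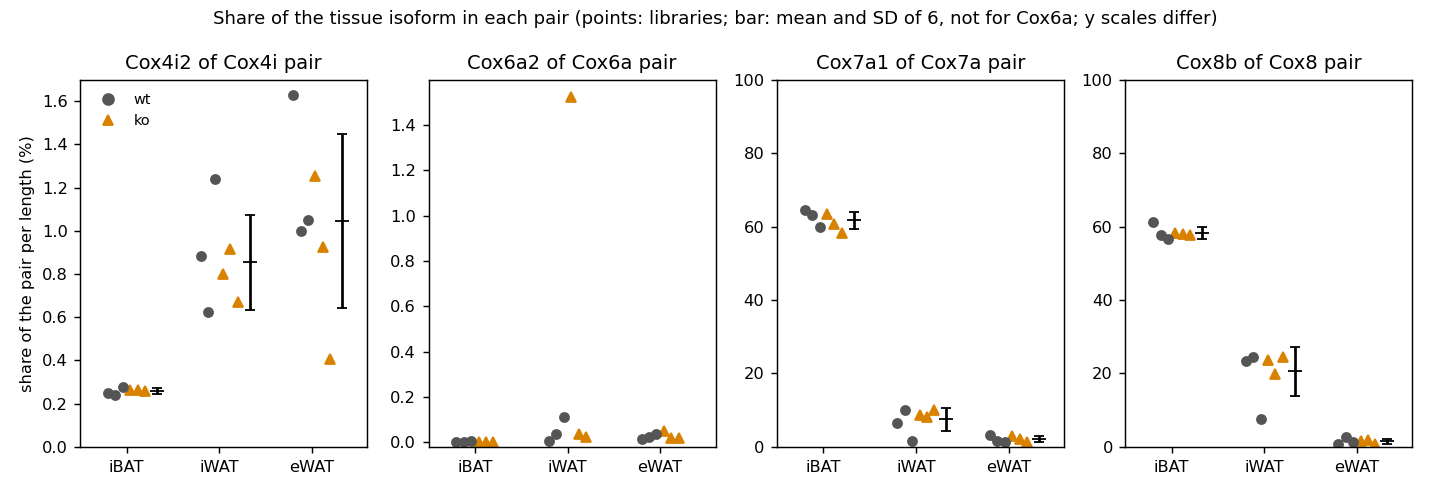
Share of the tissue isoform in each pair, in percent after division by transcript length, with points for libraries (wt circles, ko triangles) and bars for the mean and SD of 6 libraries, with no bar for Cox6a. The scales differ: Cox7a1 and Cox8b lie near 62% and 58% in iBAT (47.7% for Cox8b without the length division), Cox8b lies between 19.7% and 24.5% in iWAT except in wt replicate 3 at 7.57%, and the shares of Cox4i2 and Cox6a2 stay below 2%.

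Promoter windows were available from RefSeq (GRCm38.p6) for 5 of the 8 genes, namely Cox6a1, Cox7a1, Cox7a2, Cox8a and Cox8b. The 250 bases before the start site are shown for the Cox7a and Cox8 pairs. Among the tested members, Cox7a1 and Cox8b differed most between iBAT and the white tissues. They lie at chr7:30183921-30184170 (plus strand) for Cox7a1, chr7:140900447-140900696 (minus strand) for Cox8b, chr9:79759854-79760103 (minus strand) for Cox7a2 and chr19:7217617-7217866 (minus strand) for Cox8a. Capitals mark matches to the searched motifs described after the sequences, written 5′ to 3′ on the strand of the gene.
Cox7a1: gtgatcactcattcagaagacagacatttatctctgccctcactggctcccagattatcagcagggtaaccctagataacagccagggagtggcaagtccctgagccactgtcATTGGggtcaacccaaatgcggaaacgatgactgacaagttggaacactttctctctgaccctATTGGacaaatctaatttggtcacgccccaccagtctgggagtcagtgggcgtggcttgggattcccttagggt
Cox8b: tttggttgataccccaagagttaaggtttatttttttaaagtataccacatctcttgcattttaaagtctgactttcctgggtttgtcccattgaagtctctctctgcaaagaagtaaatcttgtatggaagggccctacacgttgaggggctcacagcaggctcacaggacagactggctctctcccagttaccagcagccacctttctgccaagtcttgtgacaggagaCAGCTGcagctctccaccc
Cox7a2: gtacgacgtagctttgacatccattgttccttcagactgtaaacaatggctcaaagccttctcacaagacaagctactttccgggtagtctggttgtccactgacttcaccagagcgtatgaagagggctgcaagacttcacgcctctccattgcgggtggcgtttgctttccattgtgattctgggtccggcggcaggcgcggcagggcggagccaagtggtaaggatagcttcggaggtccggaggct
Cox8a: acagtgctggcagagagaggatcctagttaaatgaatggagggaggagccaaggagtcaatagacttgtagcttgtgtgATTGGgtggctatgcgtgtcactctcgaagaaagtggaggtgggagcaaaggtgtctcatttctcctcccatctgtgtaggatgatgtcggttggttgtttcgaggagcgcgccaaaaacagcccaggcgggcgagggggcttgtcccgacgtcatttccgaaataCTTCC
The windows held 4 CpG dinucleotides for Cox7a1, 1 for Cox8b, 14 for Cox7a2, 11 for Cox8a and 26 for Cox6a1. The median over 32851 RefSeq windows was 6, and 37.8% of them held fewer CpG than Cox7a1 and 7.87% fewer than Cox8b. The 5 core subunits with a window held 26 (Cox5a), 22 (Cox5b), 14 (Cox6b1), 9 (Cox7c) and 5 (Cox7b). Motifs were searched on both strands in the 250 bases before and the 50 bases after the start site. The letters CTTCCGG, a core bound by ETS factors, were found in Cox8a at -5 to 2 and 33 to 39 and in Cox6a1, and in 8.86% of all windows. TATAAA, the letters of the TATA box, was found in Cox8b only after the start site, at 5 to 10 (13.6% of all windows). CAGCTG, an E-box, was found in Cox8b at -19 to -14 and 17 to 22 (16.3%). CCAAT was matched in reverse at both marked places in Cox7a1 and at the marked place in Cox8a, lay forward in Cox6a1, and occurred in 37.4% of all windows. GCATGCG, the core of the NRF1 motif, was found in Cox6a1, where its matches on both strands overlap, and in 3.58% of all windows. The nuclear receptor motif AGGTCA (16.3%) was found in none of the 5 windows, and Cox7a2 matched none of the 6 motifs. No motif was shared by Cox7a1 and Cox8b.

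Cox4i2 (chr2:152754173-152765037, plus strand, GRCm38) encodes the version of subunit 4 that is known from lung and from cells around small vessels. It was scarce and similar in the 3 tissues, at 4.47 to 5.49 CPM in iBAT, 3.04 to 4.45 CPM in iWAT and 2.08 to 5.50 CPM in eWAT. The differences were 0.40 ± 0.19 on the log2 scale for iBAT against iWAT (edgeR adjusted p = 0.0778), 0.22 ± 0.19 for iBAT against eWAT (edgeR adjusted p = 0.322) and -0.18 ± 0.18 for iWAT against eWAT (edgeR adjusted p = 0.597). The first of these passed the threshold with DESeq2 (0.41, adjusted p = 0.0307) and in edgeR without the library eWAT ko replicate 3 (0.40, adjusted p = 0.0159) or without ko mouse 3 (0.44, adjusted p = 0.0197). Markers of mural cells, led by Rgs5, summed to 939 to 1029 CPM in iBAT, 504 to 1014 CPM in iWAT and 606 to 1472 CPM in eWAT, and those of endothelium (Cdh5, Kdr, Pecam1 and Cldn5) to 738 to 902, 540 to 850 and 495 to 1023 CPM. Their part in the level of Cox4i2 was not tested.

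Cox4i1 (chr8:120668222-120674207, plus strand, GRCm38), which is needed for assembly of the enzyme, was at 1875 to 2130 CPM in iBAT, 332 to 649 CPM in iWAT and 346 to 532 CPM in eWAT. It was higher in iBAT by 2.05 ± 0.18 on the log2 scale against iWAT (edgeR adjusted p = 8.54e-08) and by 2.16 ± 0.18 against eWAT (edgeR adjusted p = 3.10e-08), and differed by 0.12 between the white tissues (edgeR adjusted p = 0.725). The gene overlaps Emc8 on the opposite strand, which held 1012 to 2441 counts per library against 7871 to 33129 of Cox4i1. Whether reads were assigned by strand is not stated.

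Cox4i2 made up 0.259% ± 0.0119 of its pair in iBAT, 0.855% ± 0.22 in iWAT and 1.04% ± 0.402 in eWAT (SD, n = 6). With the length of the union of exons in place of the longest transcript these shares were 0.487%, 1.60% and 1.95%. The spread between iBAT libraries was narrow, from 0.241% to 0.276%, and smaller than the 0.135 percentage points of the widest 95% interval from 62 to 85 counts of Cox4i2. The ratio of Cox4i2 to Cox4i1 was 3.23-fold lower in iBAT than in iWAT and 3.75-fold lower than in eWAT, without overlap (exact permutation p = 0.0022, adjusted p = 0.00289 for both). The ratio differed 1.16-fold between iWAT and eWAT, within the spread of the libraries (exact permutation p = 0.522). In eWAT ko replicate 3, which carried the epididymis markers, the share was lowest among the white adipose libraries at 0.406%.

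Cox6a2 (chr7:128205435-128206387, minus strand, GRCm38), the version of heart and skeletal muscle, held 0 to 3 counts in iBAT and 1 to 4 counts in eWAT. In iWAT it held 1, 7 and 8 counts in wt replicates 1 to 3 and 147, 3 and 4 counts in ko replicates 1 to 3. The library with 147 counts was iWAT ko replicate 1, in which 13 of 13 skeletal muscle markers exceeded 3 counts and summed to 5048 CPM. The part of this muscle signal in Cox6a2 was not tested, but the other 17 libraries held at most 8 counts. Cox6a2 was removed by the filter on low counts, so that 7 of the 8 genes entered the edgeR test. No fold change of the gene itself is given, because most libraries were near the limit of 3 counts that a count of 0 allows.

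Cox6a1 (chr5:115345642-115348981, minus strand, GRCm38), its common partner, was the most abundant of the 8 genes in iBAT, with 2195 to 2795 CPM, against 198 to 530 CPM in iWAT and 213 to 344 CPM in eWAT. The difference was 2.77 ± 0.22 on the log2 scale between iBAT and iWAT (edgeR adjusted p = 3.67e-08) and 3.11 ± 0.23 between iBAT and eWAT (edgeR adjusted p = 7.44e-09), the largest among the common isoforms. It was 0.34 between iWAT and eWAT (edgeR adjusted p = 0.324). The highest share of Cox6a2 in iBAT was 0.00624%, from 3 counts in wt replicate 3, with an exact Clopper-Pearson 95% upper limit of 0.0182%. In the iBAT libraries with 0 counts, the limit of 3 counts corresponded to a share of 0.00676% and 0.00899%, and the exact Clopper-Pearson upper limit to 0.00831% and 0.01105%. In iWAT ko replicate 1 the share was 1.52%, with an exact Clopper-Pearson 95% interval of 1.29% to 1.79%. The ratio of the pair was lower in iBAT than in either white tissue (exact permutation test, adjusted p = 0.00289 for both), but Cox6a1 itself was 6.82-fold and 8.66-fold higher in iBAT, and the size of the difference, which depends on the pseudocount at so few counts of Cox6a2, is not given. The test does not show a difference of Cox6a2 itself.

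Partners were compared in sequence, since reads that match both could be split between them. The annotated transcripts of the partners (GENCODE M21) shared 0 stretches of 31 bases in each of the 4 pairs, and the longest run in common was 14 bases, in the Cox4i pair.

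The order of levels per kb was compared next. In iBAT the means were 4323 ± 374 CPM per kb for Cox6a1, 3168 ± 315 for Cox8b, 2609 ± 132 for Cox4i1, 2265 ± 146 for Cox8a, 1026 ± 134 for Cox7a1 and 634 ± 50.8 for Cox7a2 (SD, n = 6), with Cox4i2 at 6.78 ± 0.56 and Cox6a2 at 0.0976. Cox8a (at most 2545 CPM per kb) and Cox4i1 (at least 2451) overlapped in range, and the other neighbours in this order did not. In iWAT, Cox6a1 (634 ± 230 CPM per kb), Cox8a (634 ± 207) and Cox4i1 (632 ± 179) could not be ordered. They were followed by Cox8b (180 ± 98.2) and Cox7a2 (138 ± 40.3), which overlapped, and by Cox7a1 (12.2 ± 7.08) and Cox4i2 (5.17 ± 0.704), which overlapped as well. In eWAT, Cox8a (588 ± 129), Cox4i1 (583 ± 91.8) and Cox6a1 (500 ± 91.9) overlapped and were followed by Cox7a2 (108.5 ± 17.3). The remaining tissue isoforms Cox8b (9.43 ± 5.8), Cox4i2 (5.89 ± 1.69) and Cox7a1 (2.25 ± 0.77) were all below 20 CPM per kb there. This order is a description, as transcript length only approximates how many reads a molecule gives.

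Against the background of all genes, 18728 genes were tested. Between iBAT and iWAT, 24% of them were higher in iBAT and 30.3% lower, and 6 of the 7 tested pair members were higher and 0 lower. Between iBAT and eWAT, 24.4% were higher and 30.2% lower, and again 6 of 7 members were higher. Between iWAT and eWAT, 5.7% were higher in iWAT and 4.5% lower, and 2 of 7 members, Cox7a1 and Cox8b, were higher. The median log2 difference of the members was 2.20, 2.55 and 0.34 in these contrasts, compared with -0.15, -0.18 and 0.01 over all genes tested.

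The remaining genes of the enzyme were used to see whether the pairs moved with it. Cox5a, Cox5b, Cox6b1, Cox6c, Cox7b and Cox7c were taken as the 6 nuclear core subunits. Cox6b1 and Cox7b have further isoforms, Cox6b2 and Cox7b2, which are given below. The core subunits were higher in iBAT in 6 of 6 cases, by a median of 2.56 against iWAT and 2.82 against eWAT on the log2 scale. Cox5a, which binds regulators at the matrix side, differed most (3.01 and 3.50) and Cox7c least (2.17 and 2.53). The catalytic subunits mt-Co1, mt-Co2 and mt-Co3 were higher by 2.46, 2.76 and 2.62 against iWAT and by 3.20, 3.32 and 3.31 against eWAT (3 of 3 passed in both). Between iWAT and eWAT, 1 of the 6 nuclear genes passed, Cox7b (0.56, edgeR adjusted p = 0.0489), and 0 of the 3 mitochondrial genes did. Cox7b did not pass that test in most of the alternatives, with an edgeR adjusted p of 0.0327 to 0.177 when 1 mouse was left out, 0.0623 without the library iWAT ko replicate 1 and 0.0937 without eWAT ko replicate 3. Cox5a did not pass in the main result (0.49, edgeR adjusted p = 0.0786), but did so without the lymph node libraries (0.66, edgeR adjusted p = 0.0222), with DESeq2 (0.49, adjusted p = 0.0297) and with limma voom (0.44, adjusted p = 0.0305). Cox7c (0.35 in the main result, edgeR adjusted p = 0.175) passed without the lymph node libraries as well (0.54, edgeR adjusted p = 0.0244). The mitochondrial genes mt-Co1, mt-Co2 and mt-Co3 had log2 differences of 0.74, 0.56 and 0.68 in the main result, which did not pass (edgeR adjusted p = 0.143, 0.20 and 0.112). They passed without the lymph node libraries (1.004, 0.80 and 0.93, edgeR adjusted p = 0.00977, 0.0243 and 0.0106), with DESeq2 (adjusted p = 0.00594, 0.0437 and 0.0103) and with limma voom (adjusted p = 0.00275, 0.0204 and 0.00777).

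Further isoforms behaved differently from each other. Ndufa4, a subunit of the enzyme despite its name, was higher in iBAT by 2.43 and 2.58 on the log2 scale against iWAT and eWAT. Cox7a2l, described as joining the enzyme with complex III in supercomplexes, was higher by 1.37 and 1.51, and Cox6b2, known from testis, by 1.32 and 1.19. Supercomplexes were not measured in these mice. Ndufa4l2, a relative of Ndufa4 known from low oxygen and from mural cells, did not pass in either contrast (0.37 and -0.10, edgeR adjusted p = 0.17 and 0.735). Cox7b2 and Cox8c held 0 to 5 counts and were not tested. Of 26 tested assembly factors out of 27 listed, 25 were higher in iBAT against both white tissues and 0 passed between iWAT and eWAT. Without the lymph node libraries, of the 6 factors named here Cox17 (0.49, edgeR adjusted p = 0.0221) and Tmem177 (0.51, edgeR adjusted p = 0.0231) passed between iWAT and eWAT. On all libraries Cox17 passed there with limma voom (adjusted p = 0.0255), and Tmem177 with DESeq2 (adjusted p = 0.0221) and limma voom (adjusted p = 0.0199). The copper chaperone Cox17 (5.65-fold against iWAT), the translation activator of mt-Co1, Taco1 (4.69-fold), and the heme synthesis enzyme Cox10 (4.56-fold) differed most from iWAT. Tmem177 (1.58-fold), Surf1 (1.55-fold) and Coa4 (1.41-fold, edgeR adjusted p = 0.169) differed least. With wild-type libraries only, Tmem177 did not pass against iWAT (log2 difference 0.53, edgeR adjusted p = 0.0693). Without eWAT ko replicate 3, Coa4 passed against iWAT (log2 difference 0.52, edgeR adjusted p = 0.0188) and eWAT (1.10, edgeR adjusted p = 0.000124). The medians of this list were 1.28 and 1.49, below those of the subunits. Pet117 held 0 to 14 counts and was not tested.

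**Figure D3:**
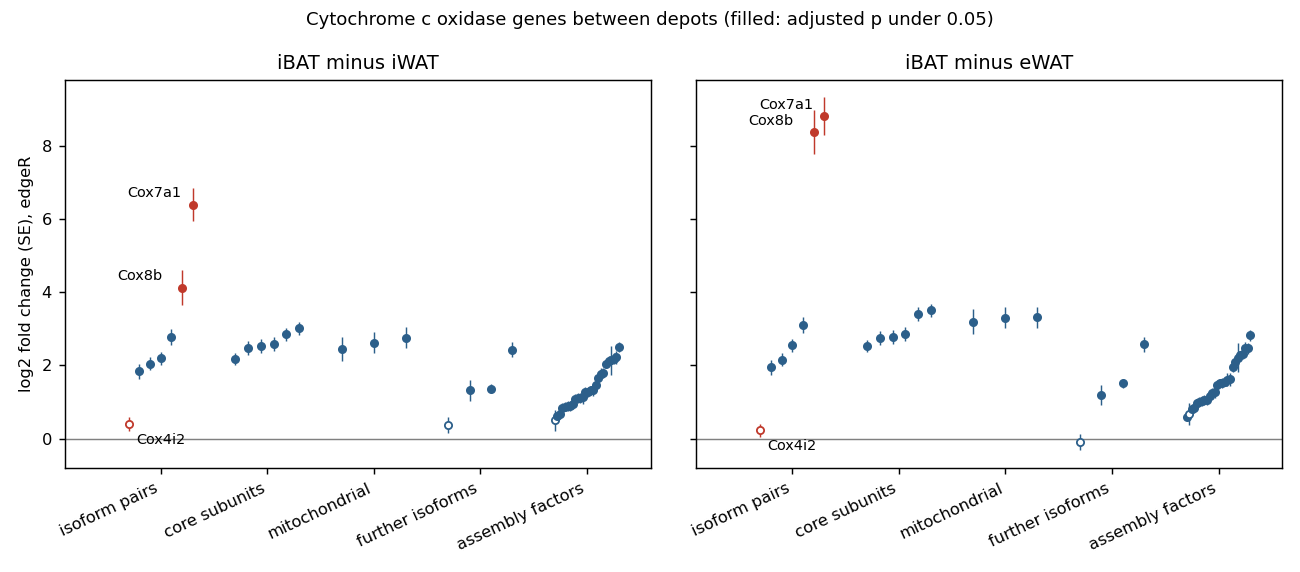
Log2 fold change with SE (edgeR) between iBAT and the white tissues for genes of the enzyme, by list, with tissue isoforms in red and filled points for an adjusted p under 0.05. Cox7a1 and Cox8b lie above the core and mitochondrial subunits, which span 2.17 to 3.50, while Cox4i2 lies near 0. Cox6a2 is not drawn because it was not tested.

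To ask which isoforms differed beyond the enzyme as a whole, each was expressed relative to the mean log2 count of the 6 core subunits of the same library. On this scale Cox7a1 was 17.1-fold and Cox8b 3.43-fold higher in iBAT than in iWAT, and 58.6-fold and 50.1-fold higher than in eWAT. The common isoforms Cox4i1, Cox7a2 and Cox8a were lower relative to the core in iBAT, by 0.56, 0.40 and 0.75 on the log2 scale against iWAT and by 0.81, 0.43 and 1.01 against eWAT. Each of these differences had an exact permutation p of 0.0022 and an adjusted p of 0.00306 over 24 comparisons, with no overlap between groups of 6. Cox4i2 was 4.76-fold lower relative to the core in iBAT than in iWAT and 6.59-fold lower than in eWAT, with the same exact p-values.

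In the comparisons with iBAT, Cox6a1 kept closest to the core. It was higher relative to it in iBAT by 0.195 against iWAT (exact permutation p = 0.0433, adjusted p = 0.052) and by 0.14 against eWAT (exact permutation p = 0.0238, adjusted p = 0.0301). Paired by mouse, the first difference passed (exact sign-flip test, adjusted p = 0.0395) and the second did not (adjusted p = 0.143), and the second was also lost without the library eWAT ko replicate 3 (exact permutation test, adjusted p = 0.0594). It was lost as well when wt mouse 2, wt mouse 3, ko mouse 2 or ko mouse 3 was left out (adjusted exact p of 0.0857 to 0.0998). Its partner Cox6a2 did not exceed 3 counts in iBAT.

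Between iWAT and eWAT, Cox8b was 14.6-fold higher relative to the core (adjusted exact p = 0.00306) and Cox7a1 3.42-fold (adjusted exact p = 0.0115). Cox8a and Cox4i1 were lower relative to the core in iWAT by 0.26 and 0.25 (adjusted exact p = 0.00306 for both). The value of Cox4i1 was -0.25 without the lymph node libraries iWAT wt replicate 3 and iWAT ko replicate 2, with an adjusted exact p of 0.0743. It was -0.14 without the epididymis library eWAT ko replicate 3 (adjusted exact p = 0.00325) and -0.15 without ko mouse 3 (adjusted exact p = 0.0112). Cox4i2, Cox6a1, Cox6a2 and Cox7a2 did not pass in this contrast. Cox4i2 (-0.47, adjusted exact p = 0.106) passed without eWAT ko replicate 3 (-0.61, adjusted exact p = 0.041).

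**Figure D4:**
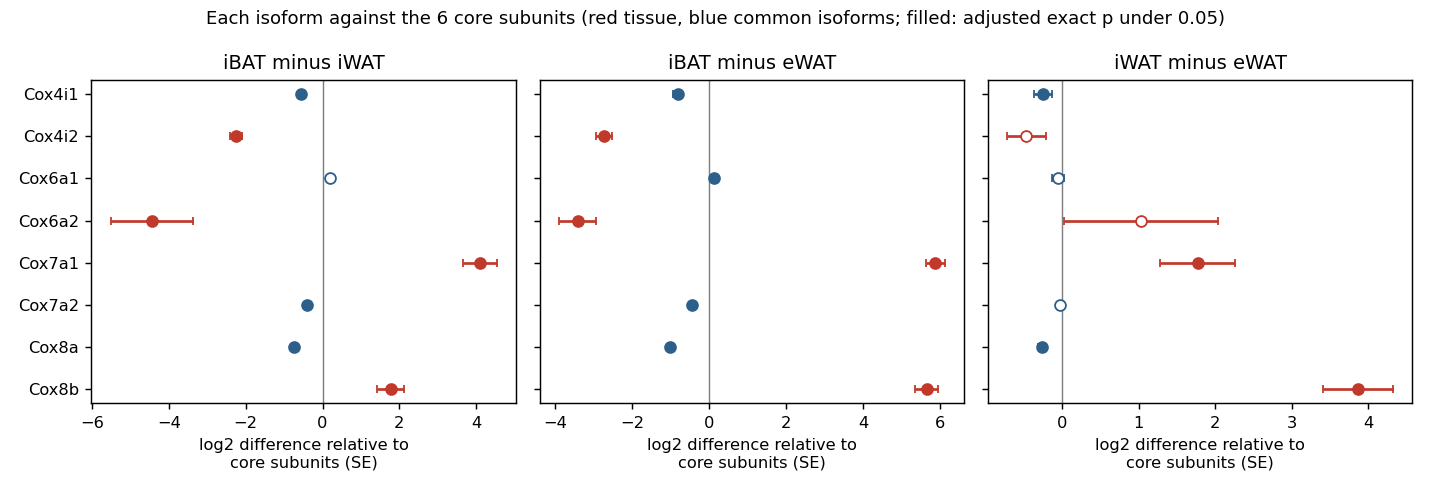
Difference between tissues of each isoform relative to the mean of the 6 core subunits, on the log2 scale with SE, tissue isoforms in red and common isoforms in blue, filled where the adjusted exact p is under 0.05. Cox7a1 and Cox8b lie to the right of 0 in the 3 panels, Cox4i2 to the left in the iBAT panels, and Cox6a1 within 0.2 of 0. The points of Cox6a2 rest on few counts and depend on the pseudocount.

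The sum of each pair was then set beside the core subunits. The ratio of mean levels between iBAT and iWAT was 11.03 for the summed Cox7a pair, 6.80 for the Cox6a pair, 6.67 for the Cox8 pair and 4.11 for the Cox4i pair, in CPM per kb. For single core subunits the same ratio was 4.51 to 8.04. Against eWAT the sums differed 15.0-fold (Cox7a), 9.10-fold (Cox8), 8.64-fold (Cox6a) and 4.44-fold (Cox4i), and single core subunits 5.75-fold to 11.3-fold. The Cox8 and Cox6a sums thus lay inside the range of the core subunits, the Cox7a sum above it and the Cox4i sum below it. These ratios of means were not tested.

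In iWAT the shares of Cox7a1 and Cox8b were set beside the marker sums of the same library. The library with the lowest shares, wt replicate 3 (1.70% and 7.57%), had the lowest thermogenic sum (43.3 CPM), the lowest adipocyte sum (6398 CPM, led by Fabp4) and the highest lymph node sum (688 CPM). The library with the second highest lymph node sum, ko replicate 2, had an adipocyte sum of 8889 CPM, a thermogenic sum of 174 CPM and shares of 8.13% and 19.7%. The highest shares of both genes, 10.03% and 24.5%, were found in wt replicate 2, which also had the highest thermogenic sum (373 CPM). The other 4 lymph node sums were 2.28 to 13.6 CPM and the other 4 adipocyte sums 15970 to 18230 CPM. The part of these signals in the shares was not tested. Without wt replicate 3 and ko replicate 2, the ratios of Cox7a1 and Cox8b to their partners were higher in iWAT than in eWAT by 2.22 and 4.52 on the log2 scale (adjusted exact p = 0.00571 for both).

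**Figure D5:**
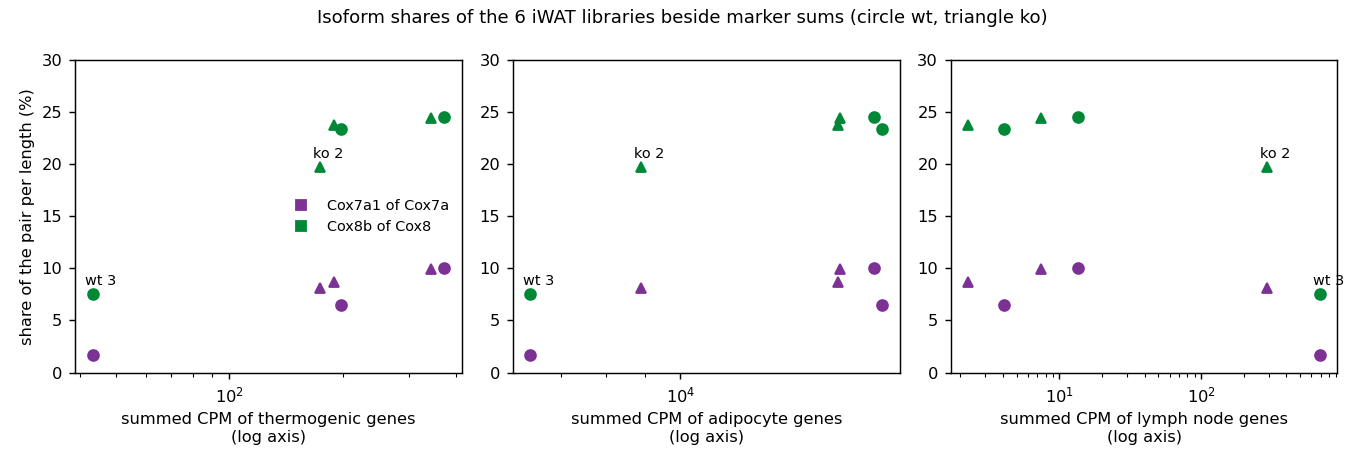
Shares of Cox7a1 and Cox8b in their pairs (percent per length) in the 6 iWAT libraries, plotted against the summed CPM of thermogenic, adipocyte and lymph node markers (log axes), wt as circles and ko as triangles. The library wt replicate 3 has the lowest shares, the lowest thermogenic and adipocyte sums and the highest lymph node sum.

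No difference of the pairs between genotypes passed a test. The edgeR fit across tissues took the libraries of a mouse as separate. In it, 0.00534% of the genes tested passed the threshold, and 0 of the 7 members did, with log2 differences of ko against wt from -0.25 for Cox4i2 to 0.10 for Cox7a1. Within tissues, 0% of the genes passed in iBAT, 0% in iWAT and 0.00534% in eWAT, and 0 of 7 members passed in each. The joint test of a difference in the genotype effect between tissues was passed by 0% of the genes. At an unadjusted p under 0.05, 411 genes were found across tissues, 238 in iBAT, 415 in iWAT, 814 in eWAT and 264 in the joint test, and DESeq2 called 4, 13, 4 and 13 genes in the first 4 of these, against 2, 0, 0 and 3 by limma voom. DESeq2 and limma voom called 0 of the members as well.

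The same held for the ratios. In iBAT, Cox7a1 made up 62.5% ± 2.4 of its pair in wt and 60.9% ± 2.6 in ko, and Cox8b 58.4% ± 2.45 in wt and 58.1% ± 0.296 in ko (SD, n = 3). In iWAT the shares were 6.07% ± 4.18 and 8.93% ± 0.922 for Cox7a1 and 18.5% ± 9.47 and 22.6% ± 2.55 for Cox8b, with wt replicate 3 as the lowest library for both. Cox4i2 made up 0.256% and 0.262% in iBAT, 0.915% and 0.795% in iWAT and 1.23% and 0.863% in eWAT of wt and ko mice. The 16 comparisons of the log2 ratios between genotypes, by tissue and over the mean of the tissues, gave exact permutation p-values of 0.4 to 1.0, where 3 mice against 3 cannot go below 0.10. No change of a ratio, of any size, could therefore pass this test.

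The genes whose profile over the 18 libraries was most like each member were then listed, as Pearson's r of log2 CPM over 18675 tested genes with a symbol, the members left out. Such values mostly follow the tissues and are descriptions. Cox7a1 was most like Cpt1b (r = 0.997), which imports fatty acids into mitochondria, Gm35853 (0.996) and Hadhb (0.995), an enzyme of fatty acid oxidation. Cox8b was most like Cidea (0.990), a lipid droplet protein of brown adipocytes, Otop1 (0.989) and Gm9899 (0.988). Among the common isoforms, Cox7a2 was most like Ndufc1 (0.999), Cox7c (0.998) and Cox6b1 (0.998), Cox6a1 like Ndufb6 (0.998), Ndufb4 (0.997) and Ndufs6 (0.997), and Cox4i1 like Cox6c (0.998), Micos13 (0.997) and Oxld1 (0.995). Cox8a was most like Chchd2 (0.997), Mrps7 (0.997) and Uqcrq (0.996). Cox4i2 had lower values, with Ccdc22 (0.846), Fdx2 (0.826) and Npepl1 (0.823).

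After the tissue means were taken out, the genes most like each member changed, in part for the common isoforms and fully for the tested tissue isoforms. For Cox7a1 they were Otop1 (0.934), Mapk8ip1 (0.90) and Acad11 (0.897), and for Cox8b they were Pnpla2 (0.969), the lipase that opens triglyceride breakdown, Nat8l (0.962) and Acbd4 (0.957). For Cox4i2 they were 9230114K14Rik (0.933), Gm49172 (0.925) and Ccnd3 (0.878). The libraries that stood apart are included, and their part in these values was not tested.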

How the data were processed

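Paired-end polyA libraries of 3 adipose depots from 6 mice were used. Per the labels and the submitters' processing notes, the authors used cutadapt for trimming and Salmon for quantification, with GRCm38 as the build, and the deposited values are estimated counts per gene in whole numbers. How transcripts were summed to genes, the strandedness and the tool versions are not given in the sources used here. The authors tested with DESeq2. From these estimated counts, genes were tested with edgeR 4.0.16 in R 4.3.3 (TMM scaling, filterByExpr, quasi-likelihood, Benjamini-Hochberg adjusted p under 0.05), with tissue and genotype as terms for tissues and the across-tissue genotype effect, and with group means for genotype within tissues. Ratios within pairs, log2 of counts plus 0.5, were compared with two-sided exact permutation tests (scipy 1.17.1), as were members relative to 6 core subunits. Transcript lengths and positions came from GENCODE M21 (GRCm38), a neighbouring release of the one used by the authors, and promoters from RefSeq.

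The members and lists were chosen with earlier results of these data known. Named genes were the members, Gm15551, every core, mitochondrial and further isoform gene, the 3 highest and 3 lowest assembly factors in iBAT against iWAT, the leading markers, and for each member the 3 genes with the highest Pearson r. Alternatives were scaling, filters, DESeq2 1.42.0, limma 3.58.1 (voom), pseudocounts, lengths, blocks, wild type only and libraries left out, and leaving out both lymph node libraries was chosen after seeing the data. Mouse identifiers in the labels pair the tissues of a mouse. Tests of tissues, and the edgeR test of genotype across tissues, treated the libraries of a mouse as separate in the main result. Replicate libraries differed by more than sampling noise. The p-values of the main tests measure the spread between libraries, which within a tissue come from different mice. The test was checked on simulated data. Intervals and floors cover counting error only.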

Additional observations from a re-analysis of the deposited data

Results flagged for a closer look

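Each member's log2 CPM and each pair's log2 ratio were examined for a single library far from the other 5 of its tissue, with both genotypes together. Of 36 groups of 6, 4 held such a library, where chance gives about 1 in 20. The gap to the nearest library, as a share of the whole range, had to exceed Dixon's 95% critical value. Cox6a2 in iWAT was far higher in ko replicate 1, at 5.68 CPM, with a gap of 0.853 of the range, and this library also held the skeletal muscle markers. The ratio of Cox7a1 to Cox7a2 in iWAT was lowest in wt replicate 3, with a share of 1.70% and a gap of 0.743, and the ratio of Cox8b to Cox8a was lowest in the same library, with a share of 7.57% and a gap of 0.798. Cox8a in iBAT was highest in ko replicate 2, at 1400.0 CPM, with a gap of 0.652. The causes were not tested.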

How the results depend on the processing

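In the alternatives that kept both genotypes, the isoform ratios between tissues kept their direction and their side of the threshold. With 1 genotype alone, 3 mice against 3 cannot go below an exact p of 0.1, so no call was possible: the called ratios kept their direction, with an adjusted exact p of 0.133 in wild type (0.24 for Cox7a between iWAT and eWAT) and 0.12 in ko, and the uncalled Cox4i ratio between iWAT and eWAT turned from -0.21 to 0.016 in ko. Ratios between genotypes could not pass at this size, and leaving out 1 mouse turned the direction of most of them, as for Cox4i in iWAT (-0.408 to 0.09), Cox6a in iBAT (-0.943 to 0.403) and Cox8 in iBAT (-0.0789 to 0.0611). Paired by mouse as a block, the called ratios had an adjusted exact sign-flip p of 0.0375. The count of genes between tissues fell with wild-type libraries only, to 6595 (iBAT against iWAT), 6574 (iBAT against eWAT) and 247 (iWAT against eWAT, where 44.1% of calls were higher in iWAT instead of 55.9%), with fewer samples in the fit. The iWAT and eWAT count, 1911 in the main result, was 1149 with at least 10 counts in every library and 750 (without ko replicate 2) to 1595 when 1 mouse was left out, and 2028 without the library iWAT ko replicate 1. For ko against wt across tissues, 0 genes were called with at least 10 counts in every library, 4 by DESeq2, 2 by limma voom and 3 with the replicate block. In iBAT DESeq2 called 13, and 0 to 1 were called with 1 mouse left out. In iWAT 1 was called without a filter, 4 by DESeq2 and 1 without eWAT ko replicate 3. In eWAT 13 were called by DESeq2, 3 by limma voom, and 0 with the strict filter, with the replicate block, without iWAT ko replicate 1, without eWAT ko replicate 3 and with any 1 mouse left out. The labels do not say that a replicate number joins a wt and a ko mouse, and deviations of same-numbered libraries correlated between -0.558 and 0.608, so the numbers were not taken as pairs. By number, the Cox7a1 share in iBAT was lower in ko in each case (64.48% and 63.55%, 63.19% and 60.72%, 59.84% and 58.35% in wt and ko), where 3 pairs cannot go below an exact p of 0.25.

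Relative to the core subunits, Cox4i1 between iWAT and eWAT was -0.25 without the lymph node libraries (adjusted exact p = 0.0743), and Cox7a2 turned to 0.0085. Cox4i2 between iWAT and eWAT was -0.606 without eWAT ko replicate 3 (adjusted exact p = 0.041), -0.344 without wt replicate 1, -0.641 without the lymph node libraries and -0.33 in ko only. Cox6a1 gave 0.195 (iBAT against iWAT, adjusted exact p = 0.0395) and 0.14 (iBAT against eWAT, 0.143) with the mouse block, 0.119 without eWAT ko replicate 3 and 0.104 to 0.183 with 1 mouse left out for the latter. Shares moved with the length used: with the union of exons the share of Cox4i2 became 0.487% (iBAT), 1.60% (iWAT) and 1.95% (eWAT), Cox7a1 67.6% and Cox8b 61.1% in iBAT, and with no length correction 54.2% and 47.7%, so that Cox8b was then the smaller part. Directions that turned were those of small differences: Cox4i2 between iBAT and eWAT in wild type only (-0.0271), Cox8a between iWAT and eWAT (-0.0777 without ko replicate 3 to 0.286 without wt replicate 3, and 0.335 without the lymph node libraries), Cox6b2 between iWAT and eWAT (0.0432 in wild type only, 0.0484 without ko replicate 3, 0.134 without eWAT ko replicate 3, and at the other end -0.271 without wt replicate 3), and Surf1 between iWAT and eWAT (-0.117 without wt replicate 1, 0.0219 without wt replicate 3, 0.00744 without ko replicate 2 and 0.0602 without the lymph node libraries). The causes were not tested. Depth limits Cox6a2 in particular, with 0 to 8 counts in 17 libraries.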
